A study of Mus musculus with 30 samples.

Results

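The RNA levels of 45 genes that encode enzymes of glycosaminoglycan synthesis, sulfation and breakdown were measured in mouse hippocampus, among 49315 gene identifiers in the count table. The members were taken as a list of gene names in 8 roles, drawn up with earlier results of these data known although no measured value entered the rule, and all 45 were matched to a row of the table. TIMP2, an inhibitor of matrix metalloproteinases, was deleted in 13 of the mice (TIMP2 KO, 6 males and 7 females), and 17 mice were WT (10 males and 7 females). All 30 were C57BL/6J mice whose frozen hippocampi were sequenced as bulk tissue, 1 library per mouse. The knockout line came from a commercial supplier, WT mice were littermates, heterozygotes were not used, and the labels give neither the allele nor the age of the sequenced mice. The question asked of these genes was whether loss of TIMP2, studied for its part in the extracellular matrix, came with a change in the enzymes that make or remove the sugar chains of that matrix.

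Glycosaminoglycans are long sugar chains that fill much of the extracellular matrix of the brain. All but hyaluronan are built in the Golgi on the core proteins of proteoglycans. Chondroitin sulfate (CS), dermatan sulfate (DS) and heparan sulfate (HS) all start from the same linkage sugars on a serine of the core protein. The chain is then lengthened with alternating sugars and altered by epimerases and sulfotransferases, and the pattern of sulfates sets which growth factors, receptors and guidance molecules the chain can bind. In the hippocampus, CS chains are carried by the lecticans of perineuronal nets and HS chains by syndecans and glypicans at the cell surface, and both kinds of chain are taken apart sugar by sugar in lysosomes.

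Total counts on genes ran from 18345517 to 41081083 per TIMP2 KO mouse and from 19445246 to 32098386 per WT mouse. Timp2 was lower in TIMP2 KO mice, with 129.98, 161 and 171 CPM (counts-per-million values, given as lowest, median and highest) against 256, 333 and 380.4 CPM in WT mice, so the groups did not overlap although signal remained (log2 fold change -0.999, SE 0.05, adjusted p = 7.6e-16 in the edgeR quasi-likelihood test, Benjamini-Hochberg adjusted). Markers of dentate gyrus granule cells were shifted, with 8 of 8 below 0 on the log2 fold change scale (median -0.13). Of these, 5 were lower at an unadjusted p under 0.05 in edgeR, against 2.56% of all genes, and 0 passed adjustment. The difference of the KO effect between sexes, male minus female, lay above 0 for 8 of 8 (median 0.15). It had an unadjusted p under 0.05 in edgeR for 1 of 8, against 2.66% of all genes. Of the 4 choroid plexus markers that could be tested, 4 lay above 0 and 3 were higher at an unadjusted p under 0.05 in edgeR, against 2.47% of all genes. The summed level of that list reached 1124 CPM in KO female mouse 11 and 366 CPM in the next KO mouse, against a highest WT value of 174 CPM. The group medians of the sum were 154 CPM in WT and 160 CPM in TIMP2 KO mice. Enpp2 made up most of these medians, with 122 CPM in WT and 128 CPM in KO mice, so they say little about the other markers. Of the 13 KO mice, those above the WT median numbered from 6 (Kcne2) to 10 (Enpp2, Folr1 and Aqp1) across the 8 markers.

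All 45 members passed the filter on low counts and were tested, so none was lost to low expression. To compare genes with each other, CPM was divided by exon length (RPKM, CPM per kilobase of exon). That length covers all annotated exons of a gene, so ranks and shares between genes depend on it. On that scale the WT medians of the members ran from 0.398 for Sulf1 to 116 for Ids. A total of 13 members had a WT median over 10 RPKM, 27 lay between 1 and 10 RPKM and 5 lay under 1 RPKM. Thus 28.9% lay over 10 RPKM and 11.1% under 1 RPKM, against 28.6% and 24.8% of all tested genes with a known length. The median over the members was 6.10 RPKM, against 3.94 RPKM over 16445 tested genes with a known length. The median coefficient of variation between mice was 6.75% in WT and 7.35% in TIMP2 KO mice, and over the 16445 genes it was 8.14% in WT mice. Among WT mice 34 of 45 members varied by less than 10%, as did 9771 of the 16445 genes, which were not matched to the members for level. Hs2st1 was the steadiest in WT mice at 2.66%, and Sulf1 the most variable in TIMP2 KO mice at 42.0%.

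**Figure D1:**
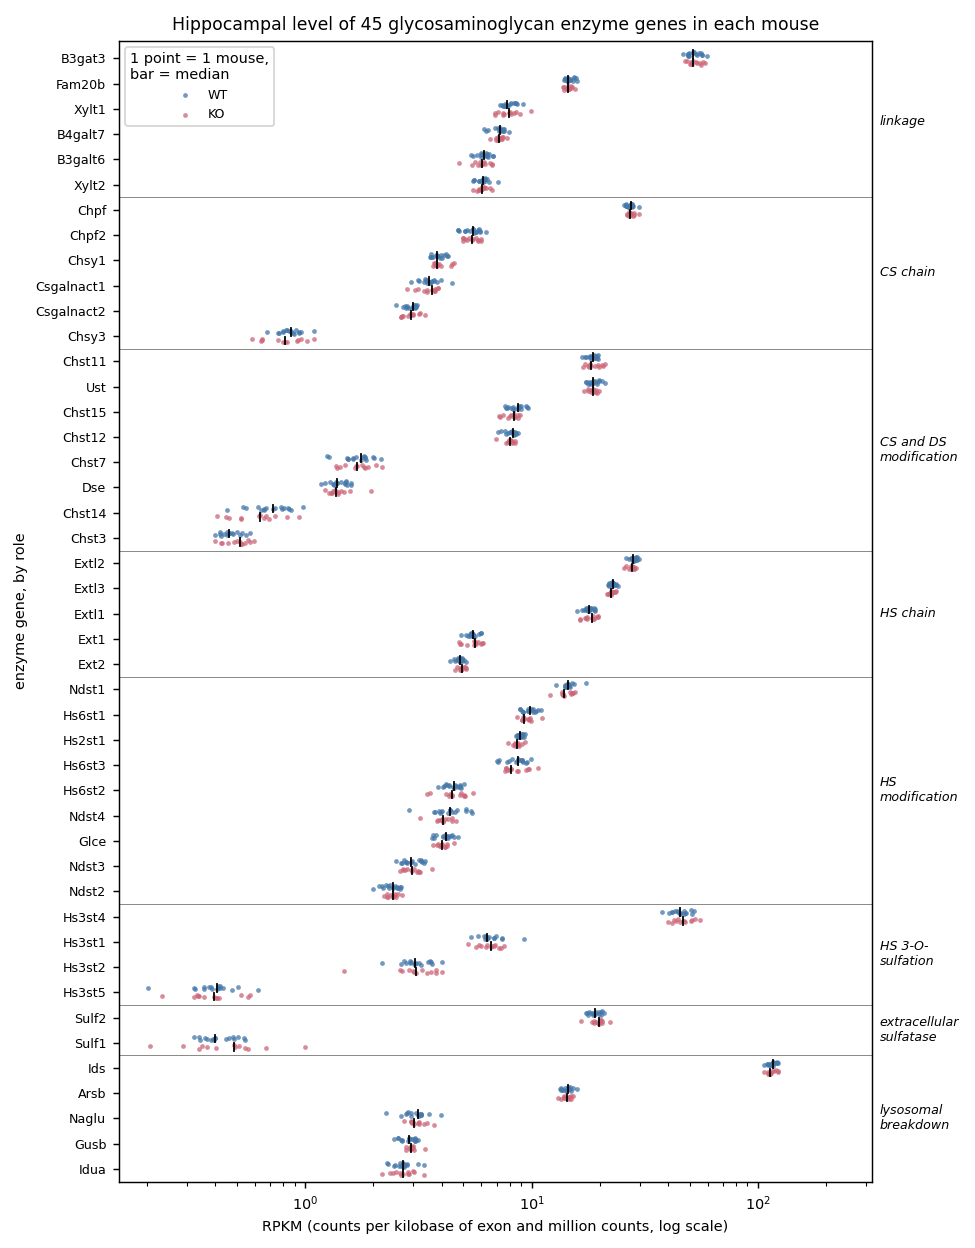
Level per exon length (RPKM, log scale) of each of the 45 enzyme genes, grouped by role and ordered by WT median, with 1 point per mouse (blue, 17 WT; red, 13 KO) and the median as a bar. The KO and WT ranges overlap for 45 of 45 genes, a count not taken over all genes. Levels differ far more between genes (0.398 for Sulf1 to 116 for Ids) than between mice.

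None of the 45 members passed adjustment over all genes tested between TIMP2 KO and WT hippocampi. By edgeR's quasi-likelihood test over 16486 genes, 2 of 45 members had an unadjusted p under 0.05 (4.44%), against 5.03% of all genes tested. Both were lower in TIMP2 KO mice, where 2.56% of all genes were called in that direction. No member was called higher, where 2.47% of all genes were. After Benjamini-Hochberg adjustment 0 of 45 members passed in edgeR, against 0.0546% of all genes, and DESeq2 gave the same count of 0 with 2 members at an unadjusted p under 0.05. The fold changes lay on both sides of 0, with 23 members below and 22 above, and ran from -0.16 (Chst14) to 0.19 (Sulf1) on the log2 scale. The median log2 fold change was -0.0003 over the members and 0.0001 over all genes tested, and the median absolute log2 fold change was 0.0205 and 0.0305. All genes tested were not matched to the members for level.

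The 95% interval of the fold change lay within 1.1-fold in either direction for 35 of 45 members, against 9144 of the 16486 genes tested. It lay within 1.2-fold for 43 of 45 members and for 12825 of all genes tested. The exceptions among the members were Chst14 and Sulf1, with WT medians of 1.51 and 4.50 CPM. For all 45 it lay within 2-fold, as it did for 16445 of all genes tested. The median SE was 0.036 over the members and 0.043 over all genes tested, which were not matched to the members for level. The interval counts thus do not show the members to be less changed than other genes of like level. The KO and WT ranges overlapped for 45 of 45 members, and the KO median was within 5% of the WT median for 38 of them. The overlap and median counts were not taken over all genes, so they do not set the members apart.

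**Figure D2:**
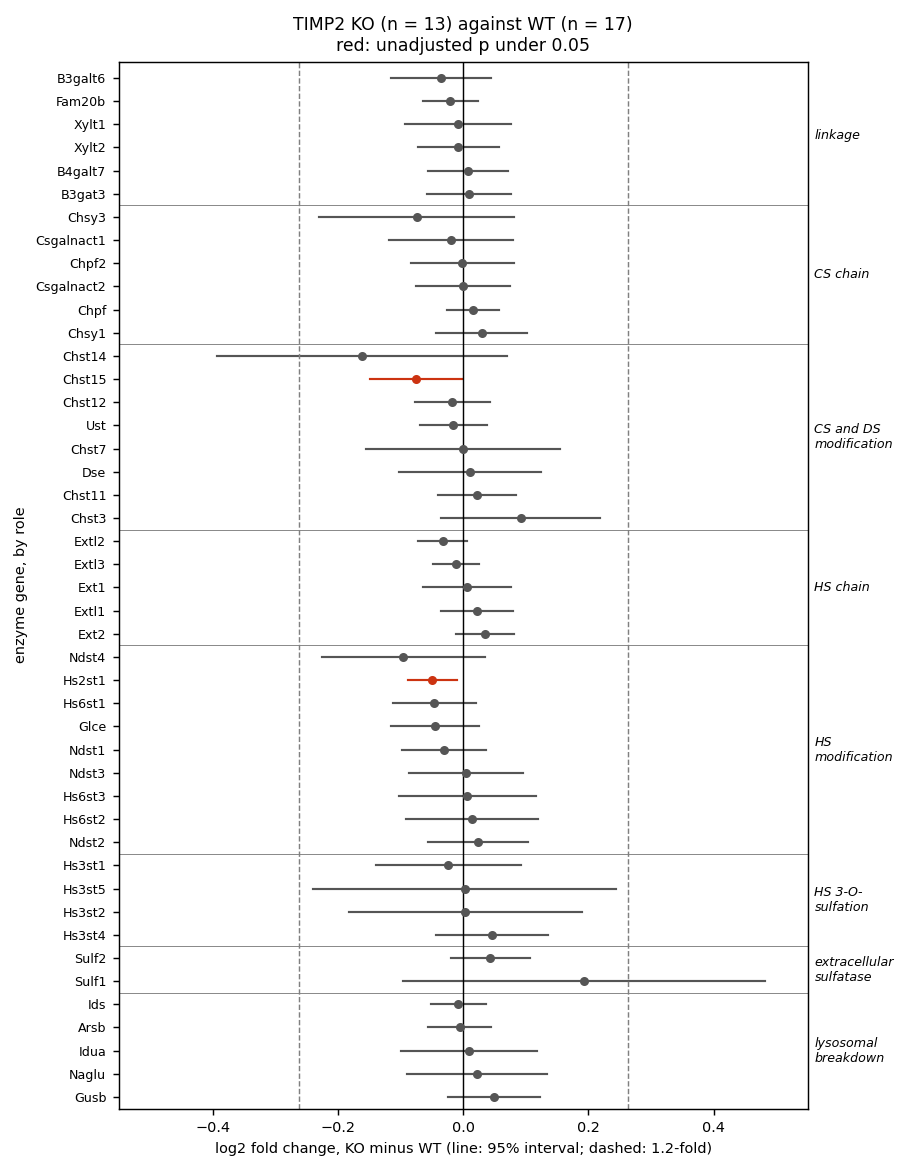
Log2 fold change of each enzyme gene between TIMP2 KO (n = 13) and WT (n = 17) mice with its 95% interval, grouped by role, the dashed lines marking 1.2-fold in either direction. Hs2st1 and Chst15 (red) are the members with an unadjusted p under 0.05, and only the intervals of Chst14 and Sulf1 cross a dashed line.

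Hs2st1 encodes the sulfotransferase that places a sulfate on iduronic acid within HS chains. Its level was 70.0, 72.7 and 76.9 CPM (lowest, median and highest) in WT mice and 64.5, 70.4 and 76.7 CPM in TIMP2 KO mice. The ranges overlapped, and 11 of 13 KO mice lay below the WT median. The log2 fold change was -0.05 (SE 0.02), a difference of -3.37% with a 95% interval from -5.98% to -0.70% (unadjusted p = 0.0153, adjusted p = 0.928 in edgeR's quasi-likelihood test). With each mouse left out in turn, the unadjusted p of Hs2st1 in that test lay between 0.00306 and 0.0371, and in males alone it was 0.358 (log2 fold change -0.03).

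Chst15 encodes the sulfotransferase that adds a further sulfate to already sulfated CS and so makes the highly sulfated CS-E unit. WT mice had 51.5, 58.7 and 65.1 CPM, and TIMP2 KO mice had 48.4, 56.2 and 59.9 CPM. Here too the ranges overlapped and 11 of 13 KO mice lay below the WT median. The log2 fold change was -0.07 (SE 0.04, unadjusted p = 0.0457, adjusted p = 0.980 in edgeR's quasi-likelihood test). The granule cell markers lay lower as well, with a summed level of 575, 660 and 872 CPM (lowest, median and highest) in WT and 506, 635 and 682 CPM in TIMP2 KO mice. With their mean as a covariate the log2 fold change of Chst15 was -0.04 (unadjusted p = 0.323 in edgeR) and that of Hs2st1 was -0.05 (unadjusted p = 0.0260). In bulk tissue, fewer cells of a type and less RNA per cell cannot be told apart. The call of Chst15 was lost when any one of 15 mice was left out and with sex as a covariate (unadjusted p = 0.0538 in edgeR). Its log2 fold change was -0.12 in females alone (unadjusted p = 0.0377 in edgeR) and -0.03 in males alone (unadjusted p = 0.485). Chst15 shares 17.9% of its exon length with the antisense gene Gm10584, which held 392 counts over all mice against 46864 for Chst15. The level of Chst15 is uncertain where reads were counted without regard to strand.

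The other members with the smallest p were Extl2, Ext2 and Ndst4, none of which reached an unadjusted p of 0.05. Extl2, whose enzyme can cap the linkage region of a nascent chain, had 89.7, 97.1 and 103 CPM in WT and 88.7, 95.5 and 100.2 CPM in TIMP2 KO mice (log2 fold change -0.03, SE 0.02, unadjusted p = 0.101 in edgeR). Ext2, a subunit of the HS polymerase, had 31.9, 35.3 and 37.8 CPM in WT and 33.7, 35.9 and 37.7 CPM in KO mice (0.03, SE 0.02, unadjusted p = 0.137 in edgeR). Ndst4, which encodes an N-deacetylase and N-sulfotransferase of HS, had 33.6, 50.8 and 63.9 CPM in WT and 37.5, 47.6 and 54.3 CPM in KO mice (-0.10, SE 0.06, unadjusted p = 0.144 in edgeR). In each of these genes the KO values lay almost wholly inside the WT range.

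**Figure D3:**
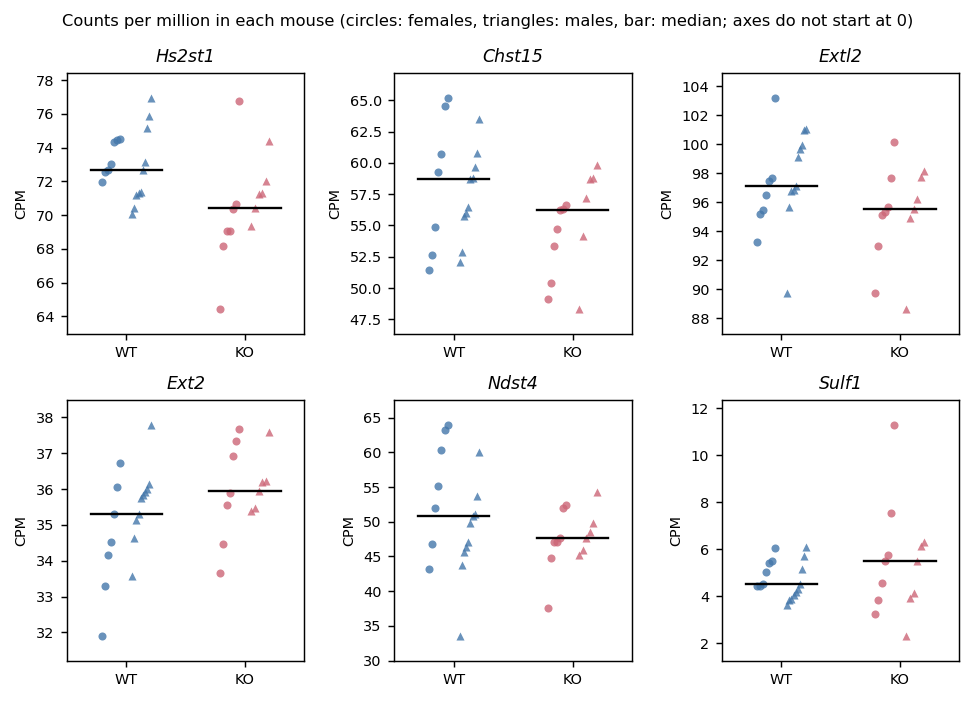
CPM in each mouse for the 5 members with the smallest p and for Sulf1, with females as circles, males as triangles and the median as a bar. For Hs2st1 and Chst15, 11 of 13 KO mice lie below the WT median while the ranges overlap, and for Sulf1 the highest point, 11.3 CPM, is a KO female. The axes do not start at 0.

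Promoter windows were available for most members. In the 250 bases before the RefSeq start (GRCm38.p6), the 37 members with an entry had a median GC content of 64.4%, and 62.2% of them held the letters GGGCGG on either strand, the core of the GC box, against 57.6% of 12029 tested genes and 33.0% of 27017 genes. The letters TATAAA on either strand were in 5.41% of these members, 6.48% of tested genes and 12.9% of all genes. Chsy3, Ndst1, Extl3, Ndst4, Csgalnact1, Sulf1, Ext1 and Xylt1 had no entry. The windows of the 2 members called in TIMP2 KO mice and of B3gat3, described with the sexes, are shown so that their base composition can be seen, 5′ to 3′ on the gene's strand, with GGGCGG or its reverse complement in capitals.
Hs2st1, chr3:144570217-144570466, minus strand: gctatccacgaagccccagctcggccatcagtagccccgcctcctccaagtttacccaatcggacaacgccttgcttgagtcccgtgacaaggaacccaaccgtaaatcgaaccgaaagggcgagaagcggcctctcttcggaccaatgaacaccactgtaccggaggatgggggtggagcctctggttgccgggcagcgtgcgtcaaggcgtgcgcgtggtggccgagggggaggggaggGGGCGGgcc
Chst15, chr7:132317229-132317478, minus strand: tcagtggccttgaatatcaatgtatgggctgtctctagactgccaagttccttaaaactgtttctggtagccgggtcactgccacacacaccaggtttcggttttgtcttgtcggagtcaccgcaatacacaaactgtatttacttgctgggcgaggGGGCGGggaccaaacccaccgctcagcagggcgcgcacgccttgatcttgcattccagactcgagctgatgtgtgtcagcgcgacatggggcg
B3gat3, chr19:8920143-8920392, plus strand: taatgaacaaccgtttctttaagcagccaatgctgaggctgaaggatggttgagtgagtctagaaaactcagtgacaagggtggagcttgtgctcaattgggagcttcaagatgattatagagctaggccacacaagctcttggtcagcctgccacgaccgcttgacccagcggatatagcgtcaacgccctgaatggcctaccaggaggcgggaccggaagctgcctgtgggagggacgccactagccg
Hs2st1 and Chst15 hold 1 such match each and B3gat3 holds 0, and their GC contents are 64.4%, 54.8% and 54.4%.

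The 6 linkage enzymes make the sugar bridge that every CS, DS and HS chain starts from. Xylt1 and Xylt2 add the xylose, B4galt7 and B3galt6 the galactoses, B3gat3 the closing glucuronic acid, and Fam20b phosphorylates the xylose. B3gat3 was the highest per length, with 46.6, 51.9 and 59.7 RPKM in WT and 47.6, 51.9 and 58.5 RPKM in TIMP2 KO mice (log2 fold change 0.01, SE 0.03). Xylt2 was the lowest by WT median, next to B3galt6 at 6.19 RPKM in WT and 6.04 RPKM in KO mice, with 5.48, 6.10 and 7.13 RPKM in WT and 5.49, 6.05 and 6.67 RPKM in KO mice (-0.01, SE 0.03). Their summed level was 94.1 RPKM in WT and 93.2 RPKM in KO mice at the median, and 0 of 6 passed an unadjusted p of 0.05 in edgeR. Xylt1 made up a median of 56.4% of the Xylt1 and Xylt2 sum in WT and 56.2% in KO mice.

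CS chains are begun by Csgalnact1 and Csgalnact2 and lengthened by complexes of Chsy1, Chsy3, Chpf and Chpf2. Chpf, which assists the polymerase, was the highest with 25.6, 27.4 and 29.9 RPKM in WT and 26.4, 27.4 and 29.9 RPKM in TIMP2 KO mice (log2 fold change 0.02, SE 0.02). Chsy3 was the lowest with 0.677, 0.861 and 1.09 RPKM in WT and 0.583, 0.810 and 1.09 RPKM in KO mice (-0.07, SE 0.08). Chpf held a median of 72.9% of the sum of the 4 polymerase genes in WT and 72.8% in KO mice, and Chsy3 held 2.32% and 2.13%. None of the 6 passed an unadjusted p of 0.05 in edgeR. Chpf2 shares 44.1% of its exon length with Smarcd3 on the opposite strand, so its level is uncertain where reads were counted without regard to strand.

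Of the 8 genes that modify CS and DS, Chst11 and Chst12 encode sulfotransferases for the C-4 position of N-acetylgalactosamine, Chst3 and Chst7 for its C-6 position, Chst14 for dermatan units and Ust for uronic acid, while Dse encodes the epimerase that turns CS into DS. By WT median Chst11 was the highest, next to Ust at 18.7 RPKM in WT and 18.8 RPKM in KO mice, with 16.7, 18.7 and 19.7 RPKM in WT and 16.9, 18.3 and 21.2 RPKM in TIMP2 KO mice (log2 fold change 0.02, SE 0.03). Chst3 was the lowest with 0.400, 0.460 and 0.566 RPKM in WT and 0.399, 0.514 and 0.591 RPKM in KO mice (0.09, SE 0.06, unadjusted p = 0.151 in edgeR). The ratio of Chst11 plus Chst12 to Chst3 plus Chst7, taken per length in each mouse, was 9.91 to 16.7 in WT (median 12.2) and 10.5 to 15.5 in KO mice (median 11.6), with most of the range shared. Chst15 was the only gene of the 8 with an unadjusted p under 0.05. Chst14 had the lowest fold change of all members, -0.16 (SE 0.11, unadjusted p = 0.165 in edgeR), at 17 to 81 counts per mouse.

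HS chains are begun by Extl3 and polymerized by Ext1 with Ext2, and Extl1 and Extl2 are related transferases. Extl2 was the highest of the 5 with 26.0, 28.2 and 29.9 RPKM in WT and 25.7, 27.7 and 29.1 RPKM in TIMP2 KO mice. Ext2 was the lowest with 4.36, 4.82 and 5.16 RPKM in WT and 4.59, 4.91 and 5.14 RPKM in KO mice. The 3 Extl genes were thus higher per length than the polymerase genes themselves, in WT as in KO mice. The summed CS chain enzymes over the summed HS chain enzymes gave a ratio of 0.531 to 0.580 in WT (median 0.556) and 0.540 to 0.589 in KO mice (median 0.560). All 5 intervals of the fold change lay within 1.1-fold, and 0 of 5 passed an unadjusted p of 0.05 in edgeR.

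The 9 genes of HS modification encode the N-deacetylase and N-sulfotransferases (Ndst1 to Ndst4), the epimerase Glce, the uronic acid sulfotransferase Hs2st1 and the C-6 sulfotransferases Hs6st1 to Hs6st3. Ndst1 was the highest with 12.8, 14.5 and 17.5 RPKM in WT and 12.0, 13.9 and 15.6 RPKM in TIMP2 KO mice (log2 fold change -0.03, SE 0.03). Ndst2 was the lowest with 1.99, 2.43 and 2.64 RPKM in WT and 2.24, 2.44 and 2.68 RPKM in KO mice (0.02, SE 0.04). Ndst1 made up a median of 60.6% of the Ndst sum in WT and 60.0% in KO mice, Ndst4 17.8% and 17.2%, Ndst3 12.2% and 12.5% and Ndst2 10.0% and 10.3%. Among the Hs6st genes the shares per length were more even, with 42.8% for Hs6st1, 38.0% for Hs6st3 and 19.8% for Hs6st2 in WT mice. Without the division by length the order differed, with WT medians of 54.6, 35.5 and 14.9 CPM for Hs6st1, Hs6st2 and Hs6st3. Their exon lengths were 5542, 7807 and 1708 bases. Hs2st1 was the only one of the 9 with an unadjusted p under 0.05.

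A rarer change, the addition of a sulfate at the C-3 position of glucosamine, was represented by Hs3st1, Hs3st2, Hs3st4 and Hs3st5, and makes binding sites for antithrombin and viral glycoproteins among others. Hs3st4 was the highest with 37.9, 45.4 and 52.0 RPKM in WT and 40.0, 46.7 and 55.5 RPKM in TIMP2 KO mice (log2 fold change 0.05, SE 0.04). Hs3st5 was the lowest with 0.201, 0.406 and 0.617 RPKM in WT and 0.232, 0.394 and 0.5683 RPKM in KO mice (0.002, SE 0.12). Hs3st4 alone held a median of 82.0% of the sum of the 4 genes in WT and 82.3% in KO mice. No interval of the 4 left the bounds of 1.2-fold, and 0 of 4 passed an unadjusted p of 0.05 in edgeR.

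The extracellular sulfatases Sulf1 and Sulf2 remove C-6 sulfates from finished HS chains outside the cell. Sulf2 had 17.4, 19.0 and 20.9 RPKM in WT and 16.6, 19.9 and 22.2 RPKM in TIMP2 KO mice (log2 fold change 0.04, SE 0.03, unadjusted p = 0.175 in edgeR). Sulf1 had 0.323, 0.398 and 0.541 RPKM in WT and 0.206, 0.485 and 0.997 RPKM in KO mice (0.19, SE 0.14, unadjusted p = 0.186 in edgeR). The KO values of Sulf1 thus reached both below and above the WT range, and Sulf2 made up a median of 97.9% of their sum in WT and 97.6% in KO mice. The highest Sulf1 value, 11.3 CPM, came from KO female mouse 11, the mouse with the highest summed choroid plexus markers (1124 CPM) and the highest summed meningeal fibroblast markers (29.5 CPM, against 25.2 CPM for the highest WT mouse). The part of those cells in the Sulf1 value was not tested. Without mouse 11 its log2 fold change was 0.04 (unadjusted p = 0.750 in edgeR). Without KO male mouse 18, which had the lowest value, it was 0.27 (unadjusted p = 0.0476).

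Of the 5 lysosomal enzymes, Ids removes a sulfate from iduronic acid, Idua the iduronic acid, Gusb glucuronic acid, Naglu N-acetylglucosamine and Arsb a sulfate from N-acetylgalactosamine. Ids was the highest of all 45 members with 106, 116 and 123 RPKM in WT and 107, 114 and 123 RPKM in TIMP2 KO mice (log2 fold change -0.01, SE 0.02). Idua was the lowest with 2.29, 2.70 and 3.36 RPKM in WT and 2.19, 2.71 and 3.34 RPKM in KO mice (0.01, SE 0.05). Gusb had the largest fold change of the role, 0.05 (SE 0.04, unadjusted p = 0.184 in edgeR), with 11 of 13 KO mice above the WT median. All 5 intervals lay within 1.1-fold, and 0 of 5 passed an unadjusted p of 0.05 in edgeR. Arsb shares 32.3% of its exon length with Gm26527 on the opposite strand, to which 0 counts were assigned in any mouse. The level of Arsb is uncertain where reads were counted without regard to strand.

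Males and females were compared over both genotypes, with genotype in the model. In edgeR's quasi-likelihood test over 17095 genes, 1 of 45 members had an adjusted p under 0.05, against 0.222% of all genes tested. At an unadjusted p under 0.05 there were 9 of 45 members (20.0%), against 9.64% of all genes, with 6 higher and 3 lower in males. The median log2 fold change of the members, male minus female, was 0.01, and that of all genes was -0.0008. Cell markers also differed between the sexes, with 3 of 8 granule cell markers lower in males at an unadjusted p under 0.05 in edgeR, of which 2 passed adjustment, and with 3 of 7 astrocyte, 2 of 7 microglia, 2 of 5 meningeal fibroblast, 1 of 4 oligodendrocyte precursor and 1 of 8 interneuron markers lower. In males 3 of 6 CA1 pyramidal cell, 1 of 5 CA3 pyramidal cell, 1 of 8 interneuron and 1 of 6 endothelial markers were higher, no oligodendrocyte or choroid plexus marker was called, and their part in the enzyme values was not tested. The male and female ranges overlapped for 45 of 45 members, a count that was not taken over all genes.

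B3gat3, the linkage glucuronosyltransferase, was the member that passed. Females had 121, 129 and 140 CPM (lowest, median and highest of 14) and males had 127, 143 and 155 CPM (of 16). The ranges overlapped, but 15 of 16 males lay above the female median and 14 of 14 females lay below the male median. The log2 fold change was 0.13 (SE 0.03), or 9.14% higher in males (adjusted p = 0.0172 in the edgeR quasi-likelihood test, Benjamini-Hochberg adjusted). The difference was 0.12 in WT mice alone and 0.13 in KO mice alone, where it did not pass adjustment (adjusted p = 0.637 and adjusted p = 0.541 in edgeR). With each mouse left out in turn, the adjusted p of B3gat3 in edgeR lay between 0.00469 and 0.0417. The difference between the genotypes for the same gene was 0.01.

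Csgalnact1, which starts CS chains, was next, with 17.05, 19.0 and 22.6 CPM in females and 14.3, 17.5 and 20.3 CPM in males. The male median lay below the female median, without passing adjustment (log2 fold change -0.16, SE 0.04, unadjusted p = 4.8e-04, adjusted p = 0.110 in edgeR), and 15 of 16 males lay below the female median. DESeq2 gave 2 members with an adjusted p under 0.05, B3gat3 and Csgalnact1. The other members with an unadjusted p under 0.05 were Hs3st4 (0.11), Dse (0.14), Ndst1 (0.08), Chpf2 (0.09) and Ext1 (0.07), which were higher in males, and Idua (-0.11) and Chsy3 (-0.15), which were lower, all as log2 fold changes, and their adjusted p ran from 0.373 to 0.509 in edgeR. These members span every role except the linkage enzymes and the extracellular sulfatases. The 3 members on the X chromosome gave values of -0.11 for Chst7 (SE 0.08), 0.03 for Hs6st2 (SE 0.05) and 0.00 for Ids (SE 0.02), none with an unadjusted p under 0.05.

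**Figure D4:**
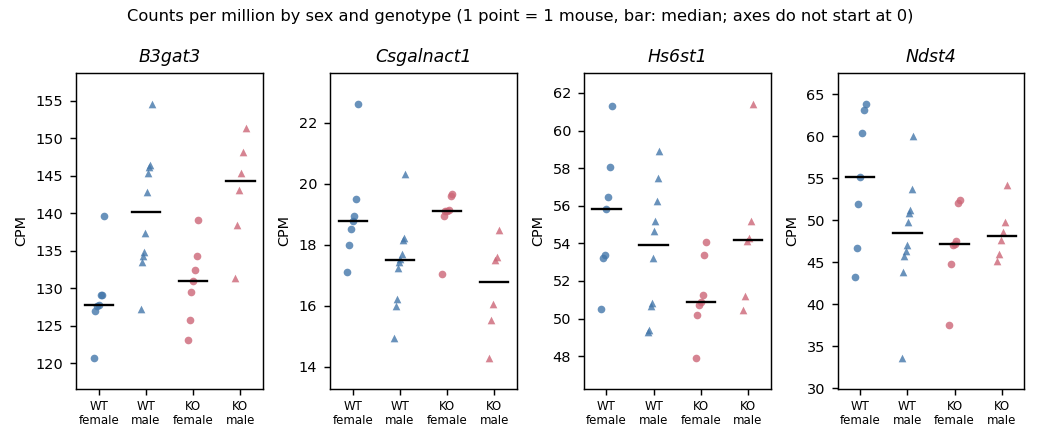
CPM of B3gat3, Csgalnact1, Hs6st1 and Ndst4 in each mouse by sex and genotype (7 WT females, 10 WT males, 7 KO females, 6 KO males), with the median as a bar. B3gat3 medians are higher in males in both genotypes (140 against 128 CPM in WT, 144 against 131 CPM in KO), and for Hs6st1 the WT and KO medians are 55.8 and 50.9 CPM in females and 53.9 and 54.2 CPM in males. The axes do not start at 0.

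Whether the genotype difference itself depended on sex was tested by an interaction term. In edgeR 1 of 45 members had an unadjusted p under 0.05 (2.22%), against 2.66% of all genes tested, and 0 members passed adjustment. That member was Hs6st1, a C-6 sulfotransferase of HS. Its medians were 55.8 CPM in WT females, 50.9 CPM in KO females, 53.9 CPM in WT males and 54.2 CPM in KO males. WT females ran from 50.5 to 61.3 CPM and KO females from 47.9 to 54.1 CPM, so that these groups overlapped in part. WT males (49.3 to 58.9 CPM) and KO males (50.5 to 61.4 CPM) overlapped almost fully. The log2 fold change, KO minus WT, was -0.12 in females alone (SE 0.04) and 0.02 in males alone (SE 0.05), and the difference between them was 0.14 (SE 0.06, unadjusted p = 0.0332, adjusted p = 1.00 in edgeR). Ndst4 had the next smallest p, with -0.22 in females alone (SE 0.08) and 0.01 in males alone (SE 0.08), and a difference of 0.23 (SE 0.12, unadjusted p = 0.0652 in edgeR). Leaving out single mice gave 0 to 2 members for the interaction, and the call of Hs6st1 was lost when any one of 6 mice was left out.

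The sugar chains also need core proteins, donor sugars and sulfate, and further enzymes, so 60 other genes of the pathway were looked at in 5 lists. Of these, 56 could be tested, and Chst13, Hs3st6, Hpse2 and Has2 had at most 19 counts in any mouse. In TIMP2 KO against WT mice, 4 of the 56 had an unadjusted p under 0.05 (7.14%), 3 lower and 1 higher, against 5.03% of all genes. Their median log2 fold change was 0.001. CS proteoglycan cores gave 0 of 9 in edgeR, HS proteoglycan cores 2 of 15, donor supply 1 of 12, other GAG enzymes 0 of 13 and hyaluronan genes 1 of 7.

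Cant1 encodes a Golgi nucleotidase that clears the nucleotide left over when a sugar is transferred. It had 48.4, 51.1 and 54.5 CPM in WT and 45.4, 48.2 and 50.2 CPM in TIMP2 KO mice, and 13 of 13 KO mice lay below the WT median although the ranges overlapped (log2 fold change -0.10, SE 0.02, adjusted p = 0.0476 in the edgeR quasi-likelihood test, Benjamini-Hochberg adjusted). That adjusted p lay just under the threshold. The unadjusted p of Cant1 in edgeR was 2.6e-05, and 1.57e-05 to 8.71e-05 with each mouse left out in turn. Adjusted p of those fits are not given here. Cant1 lies on chromosome 11 of GRCm38 0.05 Mb from Timp2, and whether its level follows from the deleted locus or its flanking DNA was not tested. Among the members only Xylt2 (23.62 Mb away) and Naglu (17.22 Mb away) share that chromosome, with log2 fold changes of -0.01 and 0.02.

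Cemip encodes a protein needed to degrade hyaluronan, the glycosaminoglycan that has no core protein. It had 23.4, 28.6 and 35.9 CPM in WT and 21.4, 27.1 and 30.3 CPM in KO mice (log2 fold change -0.15, SE 0.05, unadjusted p = 0.00719, adjusted p = 0.882 in edgeR). Gpc4, a glypican core protein, had 25.3, 30.7 and 41.7 CPM in WT and 23.8, 29.3 and 34.1 CPM in KO mice (-0.12, SE 0.06, unadjusted p = 0.0439 in edgeR). Spock1, a testican core protein, had 212, 247 and 264 CPM in WT and 225, 251 and 296 CPM in KO mice (0.07, SE 0.04, unadjusted p = 0.0498 in edgeR). The ranges overlapped in each of these genes, and the calls of Gpc4 and Spock1 were lost when any one of 14 and 16 mice, respectively, was left out. Spock1 also missed the threshold in DESeq2 (unadjusted p = 0.0513), with RLE size factors (unadjusted p = 0.0503 in edgeR), with at least 10 counts in every mouse (unadjusted p = 0.0501) and in males alone (unadjusted p = 0.210), and Gpc4 in males alone (unadjusted p = 0.0565). With the granule cell markers as a covariate the values were -0.04 for Cemip, -0.01 for Gpc4, 0.04 for Spock1 and -0.11 for Cant1. Their unadjusted p in edgeR were 0.313, 0.901, 0.291 and 2.4e-05. The markers were themselves lower in KO mice, so in bulk tissue this fit cannot tell fewer granule cells from less RNA per cell.

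**Figure D5:**
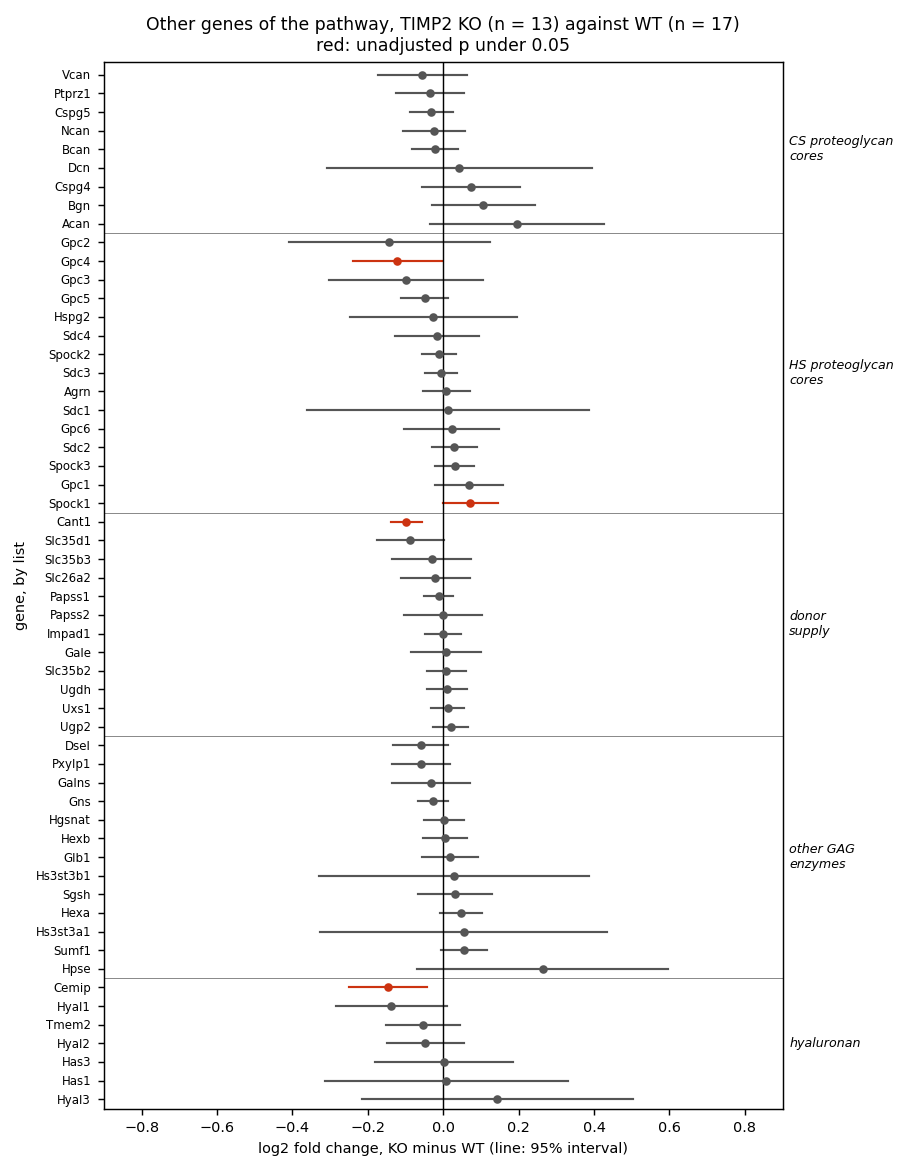
Log2 fold change with 95% interval of the 56 other pathway genes that could be tested, TIMP2 KO (n = 13) against WT (n = 17), grouped as core proteins, donor supply, other enzymes and hyaluronan genes. Cant1, Cemip and Gpc4 lie below 0 and Spock1 above 0 with an unadjusted p under 0.05 (red).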

How the data were processed

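Hippocampal RNA of 30 mice was sequenced with paired-end reads for the authors, 1 library per mouse, so that replicates are separate mice. Per the submitters' processing notes, reads were trimmed with Trimmomatic 0.36, aligned to GRCm38 with STAR 2.5.2b and counted with featureCounts of Subread 1.5.2. The deposited values are whole-number counts per gene that had not been normalized. The Ensembl release and the strand setting are not given in the sources used here. No 2 mice had identical counts. The study's methods name the date of isolation or harvest as a batch that was adjusted for in its network analysis. The labels do not give that date, so it is in no model here and its part in any value was not tested.

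Counts were filtered with filterByExpr, scaled by TMM and tested with the quasi-likelihood test of edgeR 4.0.16 in R 4.3.3, across all genes and with Benjamini-Hochberg adjustment, after the procedure was tested on simulated data. The genotype model had no covariate, the sex model had genotype as one, and the interaction had its own term. CPM used TMM-scaled totals. RPKM used the exon length and position of GENCODE release M21, which lacks 259 of the 49315 identifiers. A prior count of 2 was added before CPM were put on the log2 scale. Biological variation between mice, 7.52% as a common coefficient, limited precision more than depth did for well-covered genes.

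The 45 members, the pathway lists (CS proteoglycan cores, HS proteoglycan cores, donor supply, other GAG enzymes, hyaluronan) and the marker lists were chosen with earlier results of these data known. The genes named are the 5 members with the smallest p for genotype, members with an adjusted p under 0.05 for sex or an unadjusted p under 0.05 for the interaction, the highest and lowest member per length in each role, and other pathway genes with an unadjusted p under 0.05 for genotype. Csgalnact1, Sulf1, Chst14, Gusb and other members described beside these outside that rule were chosen after their values were seen. Of the marker lists, dentate gyrus granule cell gave 5 of 8 genes at an unadjusted p under 0.05, choroid plexus 3 of 4, astrocyte 1 of 7, endothelial 1 of 6, and the lists of microglia, oligodendrocytes and their precursors, meningeal fibroblasts, interneurons, CA3 and CA1 neurons 0 in edgeR. The share over all genes tested was 5.03%.

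Alternatives were DESeq2 1.42.0, RLE size factors, a minimum of 10 counts per mouse or none, sex, log2 total counts or granule cell markers as a covariate, each sex or genotype alone, and each mouse left out. Promoter windows came from RefSeq (GRCm38.p6). Figures were drawn with matplotlib 3.10.9 in Python 3.11.15.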

Additional observations from a re-analysis of the deposited data

Results flagged for a closer look

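In 200 sets of mice of one sex and genotype, each for 1 gene, 15 held a mouse far from the rest, where chance alone gives about 1 in 20 sets, or 10. All values here are log2 CPM, with the range of the other mice of the set in brackets. In KO females, Chsy1 was highest in mouse 27 at 4.25 (3.94 to 4.07), Hs6st3 in mouse 30 at 4.19 (3.71 to 3.89) and Gusb in mouse 5 at 3.94 (3.68 to 3.79), whereas Csgalnact1 was lowest in mouse 3 at 4.10 (4.25 to 4.30) and Chst12 in mouse 30 at 4.04 (4.19 to 4.29). In KO males, Naglu was highest in mouse 1 at 3.31 (2.97 to 3.08), and Ust was lowest in mouse 14 at 6.30 (6.44 to 6.52), Extl2 in mouse 10 at 6.47 (6.57 to 6.62) and Timp2 in mouse 18 at 7.02 (7.28 to 7.39). In WT females, Chst12 was lowest in mouse 23 at 4.07 (4.23 to 4.34) and Ndst1 in mouse 19 at 6.73 (6.87 to 6.91). In WT males, Chpf was highest in mouse 6 at 6.85 (6.66 to 6.75) and Ndst1 in mouse 32 at 7.18 (6.86 to 6.99), and Extl2 was lowest in mouse 26 at 6.49 (6.58 to 6.66) and Idua in mouse 32 at 3.28 (3.46 to 3.57).

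For Hs6st1 the log2 fold change, KO minus WT, was -0.12 in females alone and 0.02 in males alone, and the male minus female difference between them was 0.14 by the interaction test of edgeR at an unadjusted p of 0.0332 that did not pass adjustment (adjusted p = 1.00).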

How the results depend on the processing

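No member passed adjustment for genotype under any of the 9 alternatives or the 30 fits without 1 mouse. The count of members lower in TIMP2 KO mice at an unadjusted p under 0.05, 2 as reported, was 1 with sex as a covariate (Hs2st1) and 1 with granule cell markers as a covariate (Hs2st1). It was 4 in females alone (Hs2st1, Chst15, Hs6st1 and Ndst4), 0 in males alone and 1 to 4 without single mice. The share of all genes called is not given for the alternative fits, so their counts do not set the members apart. Chst15 dropped out without WT mice 4, 7, 16, 21, 22, 23, 29, 31 or 32 or KO mice 3, 5, 14, 15, 25 or 27, and Extl2 and Ndst4 joined without WT mouse 26. The count of members higher in KO mice was 1 in females alone (Sulf2) and 0 to 2 without single mice, with Sulf1 and Sulf2 called without mouse 18. Other pathway genes numbered 2 to 7 without single mice, 2 without mice 16, 21, 23 or 31 and 7 without mouse 30, and DESeq2 called Slc35d1 in place of Spock1. For sex, DESeq2 gave 2 members with an adjusted p under 0.05, WT mice alone and KO mice alone gave 0, and single mice left out gave 1 to 2 (2 without mouse 26). For the interaction, no filter gave 2 members, and leaving out single mice gave 0 to 2 (0 without mice 2, 18, 21, 27 or 31, 2 without mice 3, 4, 9, 30 or 32). Leaving out mice for the sexes and the interaction was chosen after seeing the data. Values that changed sign were Hs3st5 (-0.000196 with sex, -0.144 with granule cell markers, -0.150 in males, -0.0543 to 0.0533 without single mice), Idua (-0.00571 with sex, -0.0618 in males, -0.0189 to 0.0337), Chst11 (-0.0105) and B3gat3 (-0.0220, and -0.00363 to 0.0232) with granule cell markers, Ndst2 (-0.0106), Xylt2 (0.0272, and -0.0193 to 0.00794) and Ids (0.0179, and -0.0160 to 0.00087) in females, and Hs6st1 (0.0210) and Ndst4 (0.00860) in males, each second range being without single mice. The cause was not tested. Timp2 lay between -1.02 and -0.98 without single mice. No paired analysis was possible because each mouse number belongs to a single group and the labels used here give no litter or harvest date. Depth limits most the members with the lowest CPM, Chst14, Hs3st5, Chst3 and Chst7.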
